A study of Mus musculus with 8 samples.

Results

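Genes of the tumour necrosis factor (TNF) superfamily were examined in mouse OT-1 T cells, which are CD8+ and carry a transgenic receptor for the SIINFEKL peptide of ovalbumin on H2-Kb. The members were taken by name: every row of the unnormalized array table whose gene name began with TNFSF or TNFRSF, together with TNF, LTA, LTB, FAS, FASL, CD27, CD40, CD40LG, CD70 and LTBR. This gave 42 of 18138 rows, 25 receptors and 17 ligands. Of the 42 names, all but 2 were current symbols. TNFRSF19L is now Relt, and the joint transcript TNFSF12-TNFSF13 is now Tnfsfm13. In the cB group the T cells had been cultured for 24 h with B cells activated through CD40, and in the DC group with dendritic cells. Both kinds of stimulator came from culture, had been exposed to LPS and carried the peptide, and were mixed with the T cells at a ratio of 5 to 1 whose order the labels do not state. Cells positive for CD8 and for CD69, an activation marker, were then sorted from both groups, and each group has 4 Illumina mouse-ref8-v2.0 arrays. The labels give no age, sex or strain of the mice, and no unstimulated T cells were analysed here, so each difference is one kind of stimulation against the other.

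TNF superfamily ligands are mostly membrane proteins that act as trimers, and many can be shed. Their receptors fall into classes: those such as OX40, 4-1BB, GITR and CD27 bind TRAF adaptors, activate NF-kB and prolong the survival of T cells after antigen contact, while those with a death domain, such as Fas, can start apoptosis through FADD and caspase-8. In a CD8+ T cell both classes are present, and ligands are made by the T cell as well as by the antigen-presenting cell.

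Mean intensity per array lay between 602 and 824, and 38.3% to 40.8% of the genes were detected, meaning a detection p-value below 0.05. T cell genes were present: Cd3e and Cd8b1 were detected on all 8 arrays, whereas Cd8a and Cd4 were detected on none. The cells had been sorted as positive for CD8, so a gene undetected here is not thereby shown to be unexpressed. Of 11 B cell markers, 4 could be tested, with 3 higher in cB and Pou2af1 higher in DC. The summed intensity of the 11, background included, was 2332 to 2672 on cB arrays and 2344 to 2684 on DC arrays. Pou2af1 made up 428 to 480 of it on cB arrays and 687 to 1030 on DC arrays, so the sums do not compare the other markers. Of 16 dendritic and myeloid markers, 5 could be tested, with 4 higher in DC and Fscn1 in cB; their summed intensity was 2657 to 3149 on cB arrays and 3494 to 3705 on DC arrays. The dendritic cell marker Itgax was undetected on all 8 arrays, as was the B cell marker Pax5. The myeloid gene Cd14 was detected on the 4 DC arrays and on no cB array, Lyz2 on 3 DC arrays, and the B cell gene Ms4a1 on 1 cB array.

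Of the 42 members, 25 were detected on at least 4 of the 8 arrays and were tested, 14 were detected on no array, and 3 were detected on 1 to 3 arrays. In the fit over all 7167 genes that passed the detection filter (limma, Benjamini-Hochberg adjusted p below 0.05), 21 of the 25 tested members differed, with 6 higher in cB and 15 in DC. Over all genes tested 61.4% passed: 29.8% toward cB and 31.6% toward DC. The 8 arrays separated into groups without overlap for 18 of the 25 members, against 56.8% of all genes. A difference of at least 2-fold was called for 11 members, 4 higher in cB and 7 in DC, against 24.5% of all genes. That count depends on the background setting. Without background correction Cd70 and Tnfrsf13c fell below 2-fold, at log2 differences of 0.68 and 0.39. With the background taken from every gene, Tnfrsf10b, Tnfrsf26 and Tnfsf8 did so as well, at -0.73, -0.47 and -0.80. The median log2 difference, cB minus DC, was -0.66 over the tested members and -0.03 over all genes. Tnfrsf13c and Tnfrsf26 passed the detection filter through 1 group only, which fixes their direction, so these counts describe the tested members and not the family. The count higher in cB fell to 3 without cB replicate 2. In a sorted population, fewer cells making a transcript and less of it per cell cannot be told apart.

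Among the costimulatory receptors, OX40 alone was called toward cB and 4 of the 6 tested toward DC; the shares over all genes were 29.8% and 31.6%. Tnfrsf4, which encodes OX40, a receptor induced by antigen that sustains T cell expansion, had intensities of 8847, 6526, 9853 and 10325 on the cB arrays and 966, 875, 1392 and 1258 on the DC arrays. Every cB array was far above every DC array. The fitted log2 difference was 3.003 ± 0.13 (SE, n = 4 per group; adjusted p = 5.9e-08), which is 8.02-fold. To show how far a size depends on background removal, 2 further values are given where they differ: the authors' normalized log2 values (2.83 here) and a fit whose background came from every gene, called the all-gene background (3.28 here).

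Tnfrsf18, which encodes GITR, is the next protein-coding gene to Tnfrsf4 on chromosome 4 and went the other way. Its intensities were 7490, 5748, 11437 and 9077 on cB arrays and 10028, 11022, 11965 and 11720 on DC arrays. The intensities overlapped on 1 cB array, and after normalization the DC arrays were all above the cB arrays. The log2 difference was -0.67 ± 0.12 (adjusted p = 8.7e-04). The promoter windows of this adjacent pair are shown because the genes lie side by side and differed in opposite directions. Each runs from 250 bases before to 50 bases after the annotated start in the RefSeq table of GRCm38.p6 and is written 5′ to 3′ on the gene's strand. Tnfrsf4 lies at chr4:156013445-156013744, plus strand, and Tnfrsf18 at chr4:156026072-156026371, plus strand. Matches to GGG and CC separated by any 5 bases, a loose form of the NF-kB site, or to TGANTCA, the AP-1 site, on either strand would be in capitals, and neither window holds one.
Tnfrsf4: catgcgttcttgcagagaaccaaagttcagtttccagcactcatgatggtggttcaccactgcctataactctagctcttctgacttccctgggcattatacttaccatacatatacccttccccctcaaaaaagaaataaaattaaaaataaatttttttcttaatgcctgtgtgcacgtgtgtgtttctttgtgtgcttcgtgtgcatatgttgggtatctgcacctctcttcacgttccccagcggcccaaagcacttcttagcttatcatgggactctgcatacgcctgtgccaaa
Tnfrsf18: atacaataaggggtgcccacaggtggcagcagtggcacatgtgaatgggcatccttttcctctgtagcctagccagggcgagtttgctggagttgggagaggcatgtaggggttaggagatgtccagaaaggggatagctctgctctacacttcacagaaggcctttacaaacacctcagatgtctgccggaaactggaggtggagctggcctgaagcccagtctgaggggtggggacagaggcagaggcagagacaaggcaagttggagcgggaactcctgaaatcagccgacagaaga
Over 32851 promoter windows of that length, 50.8% hold a match to the NF-kB form and 7.81% a TGANTCA match. Of the 42 members, 32 have an entry there, with 36 windows in all, of which 22 hold the first motif and 6 the second.

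**Figure D1:**
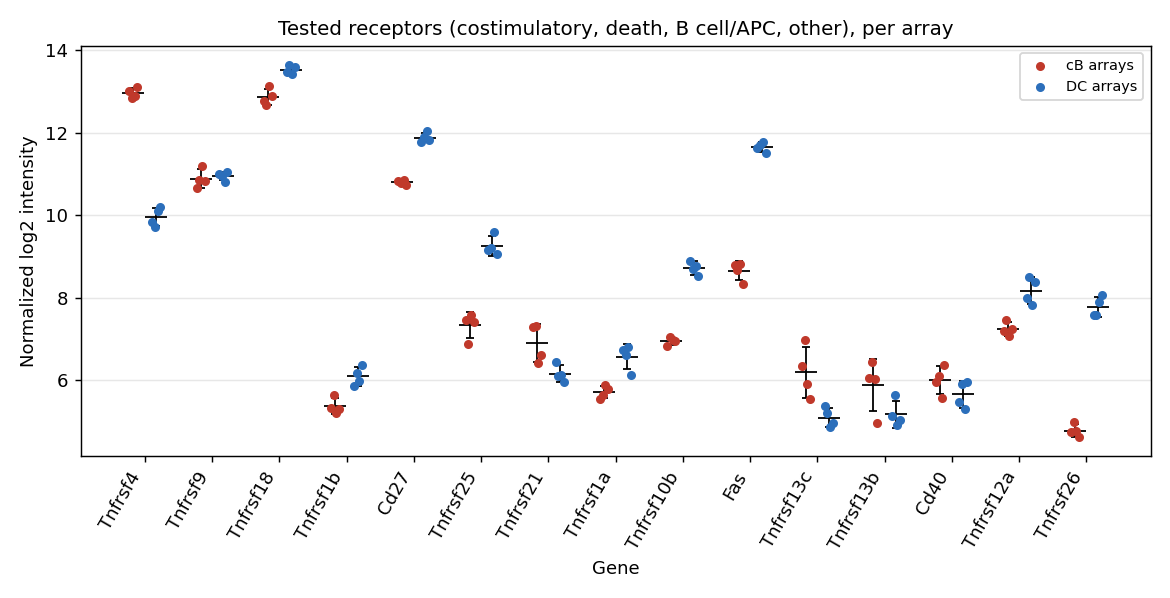
Normalized log2 intensity (y axis) of the 15 tested receptors (x axis), ordered as costimulatory, death, B cell and antigen-presenting cell, and other receptors, and by difference within each class. Each dot is 1 array, with cB in red and DC in blue, and bars give the mean and SD of 4 arrays. Tnfrsf4 stands higher on every cB array, while Fas, Cd27, Tnfrsf25, Tnfrsf10b and Tnfrsf26 stand higher on every DC array. Levels of different genes are not comparable.

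Cd27, a receptor that naive T cells already carry and that binds CD70, had intensities of 2028, 1563, 2475 and 2100 on cB arrays and 3218, 3349, 4744 and 3579 on DC arrays, without overlap. Its log2 difference was -1.08 ± 0.09 (adjusted p = 6.2e-06), close to 2-fold under each background setting. Tnfrsf25 encodes DR3, which has a death domain but costimulates T cells when it binds TL1A. It read 335, 231, 393 and 342 on cB arrays and 659, 654, 1034 and 657 on DC arrays. The groups did not overlap, and the log2 difference was -1.91 ± 0.17 (adjusted p = 9.0e-06), or -1.30 from the authors' values and -1.10 under the all-gene background. Tnfrsf1b, which encodes TNF receptor 2, was close to background at 176 to 188 on cB arrays and 198 to 215 on DC arrays. Its log2 difference was -0.72 ± 0.14, and only -0.23 from the authors' values and -0.06 under the all-gene background, with the call kept. Tnfrsf9, which encodes 4-1BB, a marker of recent antigen contact, overlapped between groups at 1649 to 3092 on cB and 1840 to 2175 on DC arrays and did not pass (-0.06 ± 0.13, adjusted p = 0.70). The receptors HVEM (Tnfrsf14) and CD30 (Tnfrsf8) were detected on 0 and 1 arrays and were not tested.

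Of the 4 death receptors, all tested, 3 were higher in DC and 1 in cB, where 31.6% and 29.8% of all genes were. Fas, which recruits FADD and caspase-8 when FasL binds, read 602, 454, 717 and 518 on cB arrays and 2888, 3012, 4047 and 2914 on DC arrays. Every DC array was far above every cB array. The log2 difference was -3.00 ± 0.13 (adjusted p = 5.4e-08), 7.98-fold, and it stayed between -2.62 and -3.23 under the other background settings. Tnfrsf10b, which encodes the mouse TRAIL receptor, read 268, 241, 310 and 287 on cB arrays and 575, 498, 653 and 483 on DC arrays, again without overlap. Its log2 difference was -1.77 ± 0.11 (adjusted p = 5.4e-07), or -1.09 from the authors' values and -0.73 under the all-gene background.

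The window of the Fas promoter is shown because Fas had the lowest adjusted p of all members. It lies at chr19:34290409-34290708, plus strand, and capitals mark 3 matches to the NF-kB form and 1 to TGANTCA.
Fas: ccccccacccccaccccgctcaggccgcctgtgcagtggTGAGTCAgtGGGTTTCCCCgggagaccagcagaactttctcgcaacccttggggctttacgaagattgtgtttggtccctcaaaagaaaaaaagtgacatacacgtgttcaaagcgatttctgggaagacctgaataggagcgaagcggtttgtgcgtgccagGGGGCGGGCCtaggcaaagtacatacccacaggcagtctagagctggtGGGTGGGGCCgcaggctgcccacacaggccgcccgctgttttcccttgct
Tnfrsf1a, which encodes TNF receptor 1, was dim in both groups, at 176 to 216 on cB arrays and 203 to 273 on DC arrays. It differed by -0.86 ± 0.16 (adjusted p = 9.5e-04), by -0.30 from the authors' values and by -0.09 under the all-gene background. Tnfrsf21, which encodes DR6, was the exception toward cB, with 313, 263, 254 and 258 on cB arrays and 221, 197, 222 and 195 on DC arrays. Its difference of 0.75 ± 0.22 (adjusted p = 0.013) shrank to 0.31 from the authors' values and to 0.11 under the all-gene background, where it did not pass (adjusted p = 0.056). It was detected on 3 cB arrays and 1 DC array.

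Set side by side, the 6 tested costimulatory receptors had a median log2 difference of -0.70 and the 4 death receptors one of -1.31, where all genes had -0.03. The costimulatory class spanned the wider range, from -1.91 for Tnfrsf25 to 3.003 for Tnfrsf4, and the death class ran from -3.00 for Fas to 0.75 for Tnfrsf21. The difference between the classes was not tested. The 2 medians were -0.44 and -0.69 from the authors' values, and -0.38 and -0.41 under the all-gene background.

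The 3 mouse genes Tnfrsf26, Tnfrsf22 and Tnfrsf23 are neighbours on chromosome 7 and gave unlike readings. Tnfrsf26 was undetected on all 4 cB arrays, at 152, 154, 153 and 144, and detected on all 4 DC arrays, at 314, 301, 417 and 387. It was at least 4.90-fold higher in DC, taking the lowest detected level of each cB array as the limit, and no p is given because its direction was fixed by the detection filter. The bound holds for this background setting; the log2 difference was -1.28 from the authors' values and -0.47 under the all-gene background. Tnfrsf22, a decoy TRAIL receptor in the mouse, read 244, 202, 232 and 248 on cB arrays and 518, 501, 644 and 529 on DC arrays, without overlap. Its detection p-values were 0.055 to 0.297 on cB arrays and 0.012 to 0.122 on DC arrays, so that only 1 DC array counted as detected, and it was not tested. The authors' values include it, and in them limma gave a log2 difference of -1.32 (adjusted p = 9.8e-10). The third, Tnfrsf23, also a decoy TRAIL receptor, was undetected on every array. Tnfrsf12a encodes Fn14, the receptor for TWEAK. It read 276 to 319 on cB arrays and 371 to 452 on DC arrays (-0.93 ± 0.16, adjusted p = 7.2e-04). The log2 difference was -0.56 from the authors' values and -0.34 under the all-gene background.

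Receptors typical of B cells and antigen-presenting cells were dim. Tnfrsf13c, which encodes the BAFF receptor that B cells need for survival, read 233, 237, 218 and 198 on cB arrays and 181, 166, 160 and 155 on DC arrays. It was detected on the 4 cB arrays and on no DC array, so the filter fixed its direction and no p is given. The log2 difference was 1.10 as fitted, 0.39 from the authors' values and 0.11 under the all-gene background. The B cell gene Cd79b was likewise detected on the 4 cB arrays, at 297 to 351, against 143 to 176 on DC arrays, where it was not detected. Of the 11 B cell markers, 3 of the 4 tested were higher in cB, while Pou2af1 was higher in DC (-1.27 ± 0.16). Of the 11, 4 were undetected on every array, Pax5 among them. The part of B cell transcripts in the BAFF receptor signal was not tested. Tnfrsf13b (TACI) and Cd40 did not pass (0.70 ± 0.29, adjusted p = 0.061, and 0.34 ± 0.20, adjusted p = 0.17). Cd40, the receptor through which the stimulator B cells had been activated, read 211, 193, 197 and 241 on cB arrays and 184, 190, 182 and 196 on DC arrays, with overlap. Tnfrsf13b did pass without cB replicate 4, with a difference of 1.01. RANK (Tnfrsf11a), its soluble decoy osteoprotegerin (Tnfrsf11b) and BCMA (Tnfrsf17) were undetected throughout, as were Ltbr, Tnfrsf19 and Relt.

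Among the ligands, 10 of 17 were tested, 3 of them higher in cB and 6 in DC, beside 29.8% and 31.6% of all genes. The largest differences were those of OX40 ligand and CD30 ligand, both higher in DC. Tnfsf4, which encodes OX40 ligand, read 300, 196, 209 and 219 on cB arrays and 979, 999, 1050 and 1102 on DC arrays. No array of one group came near the other. The log2 difference was -3.56 ± 0.27 (adjusted p = 2.2e-06), or -2.25 from the authors' values and -1.94 under the all-gene background. Tnfsf8, which encodes CD30 ligand, read 237, 163, 199 and 166 on cB arrays, where it was detected on 2 of 4, and 522, 498, 625 and 417 on DC arrays. It differed by -3.05 ± 0.29 (adjusted p = 1.1e-05), by -1.51 from the authors' values and by -0.80 under the all-gene background. On the same DC arrays the myeloid genes Cd14 and Zbtb46 were higher, at 267 to 382 and 525 to 722 against 160 to 186 and 217 to 280 on cB arrays. Cd14 was detected on no cB array, so the filter fixed its direction. Of the 16 dendritic and myeloid markers, 5 could be tested, with 4 higher in DC and Fscn1 higher in cB (1.48 ± 0.21). Another 7 were undetected on every array, Itgax among them. Dendritic cells can carry OX40 ligand as well, and the part of dendritic cell transcripts in the Tnfsf4 and Tnfsf8 values was not tested.

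**Figure D2:**
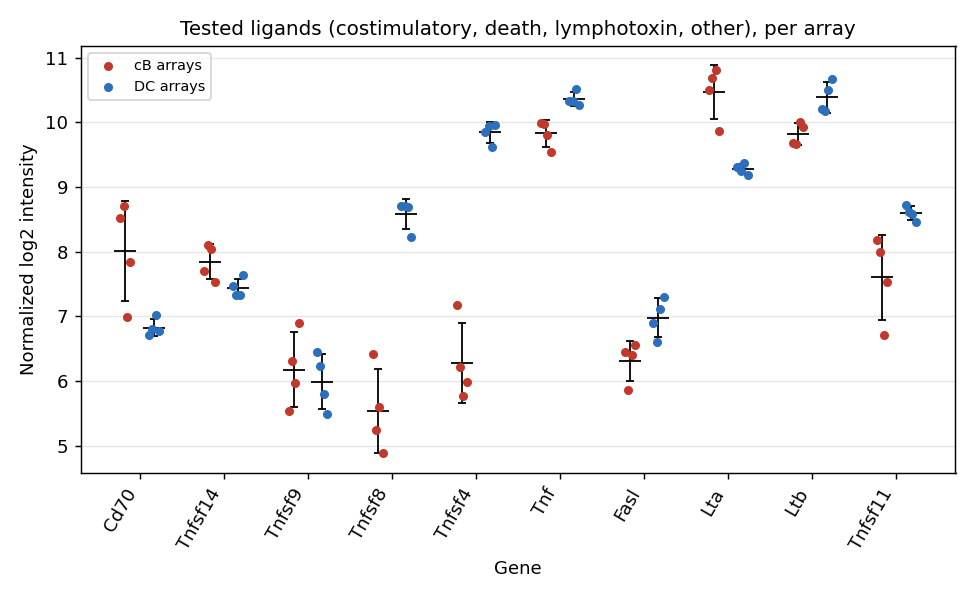
Normalized log2 intensity (y axis) of the 10 tested ligands (x axis), ordered as costimulatory, death, lymphotoxin and other ligands. Dots are arrays, with cB in red and DC in blue, and bars give the mean and SD of 4 arrays. Tnfsf4 and Tnfsf8 stand clear on the DC side, Lta on the cB side, and the cB arrays of Cd70 are widely spread.

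Cd70, the ligand of CD27, was higher in cB with a wide spread. It read 531, 458, 310 and 411 on cB arrays and 237, 232, 292 and 240 on DC arrays. All cB intensities exceeded the DC ones, but after normalization cB replicate 3 (6.99 on the log2 scale) fell just below DC replicate 3 (7.02). The log2 difference was 1.19 ± 0.32 (adjusted p = 0.0092), between 0.97 and 1.54 with any 1 array left out, 0.68 from the authors' values and 0.41 under the all-gene background. Tnfsf14, which encodes LIGHT, a ligand of HVEM, read 351 to 485 on cB arrays and 275 to 331 on DC arrays. Its difference of 0.41 ± 0.15 (adjusted p = 0.034) kept its call under 8 of 17 alternatives. The difference was 0.24 from the authors' values and 0.14 under the all-gene background. The 4-1BB ligand gene Tnfsf9 overlapped (0.18 ± 0.30, adjusted p = 0.62). The GITR ligand (Tnfsf18), TL1A (Tnfsf15) and CD40 ligand (Cd40lg) genes were undetected on all arrays; Cd40lg read 173, 123, 153 and 175 on cB arrays and 150, 147, 162 and 135 on DC arrays.

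The 3 neighbouring cytokine genes Lta, Tnf and Ltb on chromosome 17 did not move as one. Lta, which encodes lymphotoxin alpha, read 1642, 1466, 2401 and 1213 on cB arrays and 717, 668, 920 and 702 on DC arrays. The groups did not overlap, and the log2 difference was 1.19 ± 0.19 (adjusted p = 3.5e-04). Tnf itself read 1191, 926, 1262 and 992 on cB arrays and 1296, 1239, 1812 and 1324 on DC arrays. These overlapped before normalization and separated after it, with a log2 difference of -0.54 ± 0.12 (adjusted p = 0.0035). Ltb, whose product anchors lymphotoxin to the membrane, read 985, 773, 1450 and 1251 on cB arrays and 1204, 1133, 1794 and 1706 on DC arrays. It differed by -0.57 ± 0.14 (adjusted p = 0.0058) and did not pass when arrays were scaled by their medians (adjusted p = 0.054). The 3 promoter windows are shown together because the genes are adjacent and differed in opposite directions. Lta lies at chr17:35205302-35205601, minus strand, Tnf at chr17:35201958-35202257, minus strand and Ltb at chr17:35194257-35194556, plus strand, and capitals mark matches to the NF-kB form, of which Lta has 2 that overlap, Tnf 2 and Ltb 4, with 3 of the 4 overlapping.
Lta: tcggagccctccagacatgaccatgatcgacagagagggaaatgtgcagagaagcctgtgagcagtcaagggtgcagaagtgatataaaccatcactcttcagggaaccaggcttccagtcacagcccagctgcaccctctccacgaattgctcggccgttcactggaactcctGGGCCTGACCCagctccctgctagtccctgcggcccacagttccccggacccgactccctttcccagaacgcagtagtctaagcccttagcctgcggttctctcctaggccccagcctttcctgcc
Tnf: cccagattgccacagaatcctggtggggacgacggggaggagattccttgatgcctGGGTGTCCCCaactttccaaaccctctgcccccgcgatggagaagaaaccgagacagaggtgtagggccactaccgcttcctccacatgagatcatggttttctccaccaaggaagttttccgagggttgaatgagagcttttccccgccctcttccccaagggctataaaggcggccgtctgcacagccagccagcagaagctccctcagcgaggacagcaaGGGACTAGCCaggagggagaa
Ltb: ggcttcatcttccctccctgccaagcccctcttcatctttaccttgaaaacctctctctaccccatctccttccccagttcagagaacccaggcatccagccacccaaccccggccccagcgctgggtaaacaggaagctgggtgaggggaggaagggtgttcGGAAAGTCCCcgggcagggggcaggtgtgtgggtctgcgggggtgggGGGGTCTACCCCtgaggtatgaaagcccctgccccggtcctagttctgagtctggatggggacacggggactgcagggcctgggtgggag
None of the windows holds TGANTCA.

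Fasl, which encodes the ligand that cytotoxic T cells use to engage Fas, was dim, at 239, 183, 253 and 254 on cB arrays and 248, 220, 303 and 285 on DC arrays. The intensities overlapped, and the normalized values did not. The log2 difference was -0.66 ± 0.19 (adjusted p = 0.012), -0.28 from the authors' values and -0.10 under the all-gene background. It was past the threshold under each alternative except median scaling (adjusted p = 0.059). Tnfsf11, which encodes RANKL, read 452, 335, 281 and 359 on cB arrays and 526, 479, 587 and 468 on DC arrays, without overlap. It lay just inside a 2-fold difference, at -0.99 ± 0.28 (adjusted p = 0.010), and between -1.19 and -0.70 with any 1 array left out. That size holds for this background setting. The log2 difference was -0.62 from the authors' values and -0.44 under the all-gene background. The TRAIL gene Tnfsf10, the TWEAK gene Tnfsf12 and Tnfsfm13 were undetected on every array, and the BAFF gene Tnfsf13b was detected on 3 of the 8.

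Ligands and receptors were then placed side by side in 24 pairs known to bind, some genes standing in several pairs. Both partners were called in 7 pairs, of which 3 went the same way and 4 in opposite ways. The widest split was OX40, with the receptor gene at 3.003 and the ligand gene at -3.56. The CD27 pair was split in reverse, with the receptor at -1.08 and Cd70 at 1.19. The other 2 opposed pairs were lymphotoxin alpha with each of the 2 TNF receptors, at 1.19 against -0.86 for Tnfrsf1a and -0.72 for Tnfrsf1b. The pairs that moved together were Fasl with Fas, at -0.66 and -3.00, and Tnf with Tnfrsf1a and with Tnfrsf1b, each gene higher in DC. In the other 17 pairs at least 1 partner was not tested or not called. For TRAIL the receptor gene differed by -1.77 while the ligand gene was undetected. For CD30 the ligand gene differed by -3.05 while its receptor was detected on 1 array. An undetected partner is not thereby shown to be absent.

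**Figure D3:**
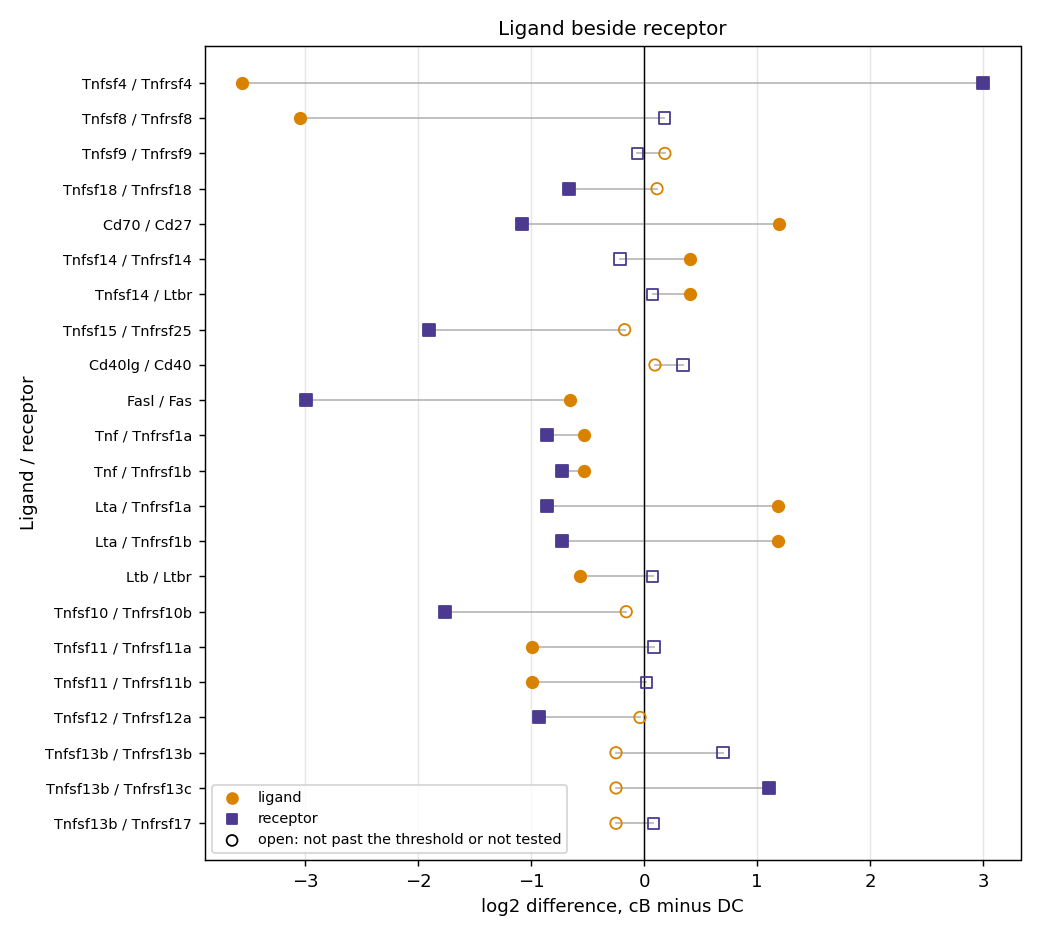
Log2 difference, cB minus DC (x axis), of the ligand (circle) and the receptor (square) in each of 22 pairs whose genes are both in the table (y axis). Filled symbols passed the threshold and open ones did not or were not tested. The line is longest for Tnfsf4 and Tnfrsf4, which lie on opposite sides of 0.

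Genes that act below the receptors were counted in the same way. The list of adaptors and regulators held 41 genes, of which 38 were in the table and 32 tested, and 23 were called, 4 higher in cB and 19 in DC. That is 71.9%, near the 61.4% of all genes, of which 29.8% went toward cB and 31.6% toward DC, with a median log2 difference of -0.44. Of 6 TRAF and TANK adaptors tested, 5 were higher in DC and 1 in cB: Tank differed by -1.02 ± 0.12, Traf4 by -0.82 ± 0.13 and Traf6 by -0.65 ± 0.12, while Traf5 went the other way by 0.60 ± 0.23. Traf1, which binds several costimulatory receptors, differed by -0.65 ± 0.13. Of 10 cIAP and kinase genes, 7 were higher in DC and none in cB, with Birc2 (cIAP1) at -0.98 ± 0.12, Chuk (IKK alpha) at -0.78 ± 0.12 and Ikbkg (NEMO) at -0.58 ± 0.10. Ripk1, the kinase shared by survival and death complexes, did not pass (0.10 ± 0.11).

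The largest differences among the 32 tested signalling genes were those of Tnfaip3 and Cyld, whose products remove ubiquitin chains and restrain NF-kB signalling. Tnfaip3, which encodes A20, read 578, 379, 560 and 584 on cB arrays and 1468, 1233, 1857 and 1899 on DC arrays, without overlap, a log2 difference of -2.09 ± 0.14 (adjusted p = 1.2e-06). Cyld, a deubiquitinase gene, read 1489, 1114, 2007 and 1695 on cB arrays and 4149, 3997, 5686 and 4599 on DC arrays (-1.83 ± 0.09, adjusted p = 1.7e-07). Tnip1, whose product binds A20, and Rbck1, of the linear ubiquitin ligase, differed by -1.10 ± 0.12 and -1.06 ± 0.11. In the list of ubiquitin editors and brakes, which also holds subunits of that ligase, 7 of 10 genes differed toward DC and Tnfaip8 toward cB. Over all genes tested the shares were 31.6% and 29.8%. In the list of death domain adaptors and the proteins they engage, 6 genes were tested. The protease gene Casp8 (0.35 ± 0.11) and the kinase gene Ripk3 (0.66 ± 0.16) were higher in cB, 2 of 6 and so near the 29.8% of all genes. The other 4 did not pass, among them the adaptor gene Fadd at -0.13 ± 0.11. Cflar, the inhibitor of caspase-8, was undetected on all arrays.

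**Figure D4:**
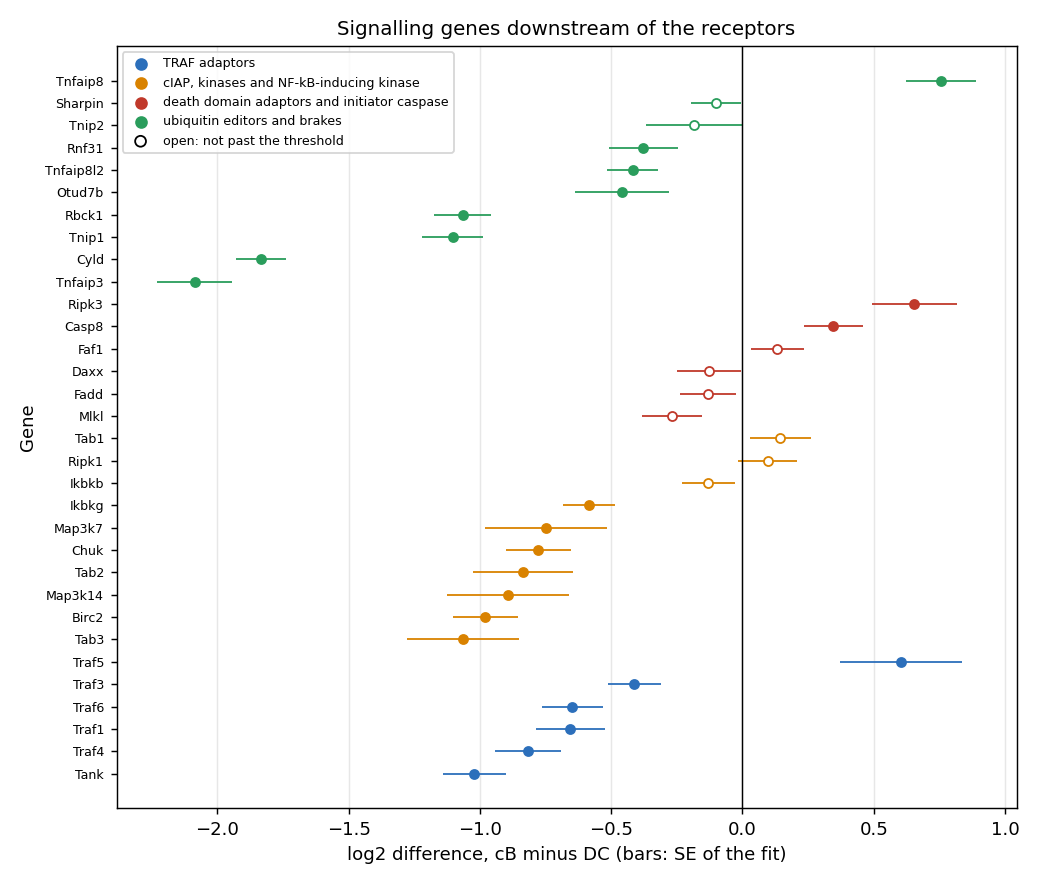
Log2 difference, cB minus DC (x axis), with the SE of the fit, for the 32 tested signalling genes (y axis), coloured by class. Open circles did not pass the threshold. Tnfaip3 and Cyld lie farthest toward DC, and the genes listed with the death domain adaptors lie between -0.27 and 0.66.

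As a share of the difference, sizes moved least with the background setting in bright members. For Tnfrsf4, Tnfrsf18, Fas, Cd27, Lta and Tnf, the authors' values gave 2.83, -0.66, -2.62, -1.02, 1.03 and -0.47, close to the values above. The all-gene background gave 3.28, -0.68, -3.23, -1.17, 1.36 and -0.63 for the same genes. The direction was the same as fitted, from the authors' values and under the all-gene background for each of the 25 tested. These settings all start from the same intensities. Dim members such as Tnfrsf26 and Tnfsf8 gave smaller sizes from the authors' values and under the all-gene background.

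**Figure D5:**
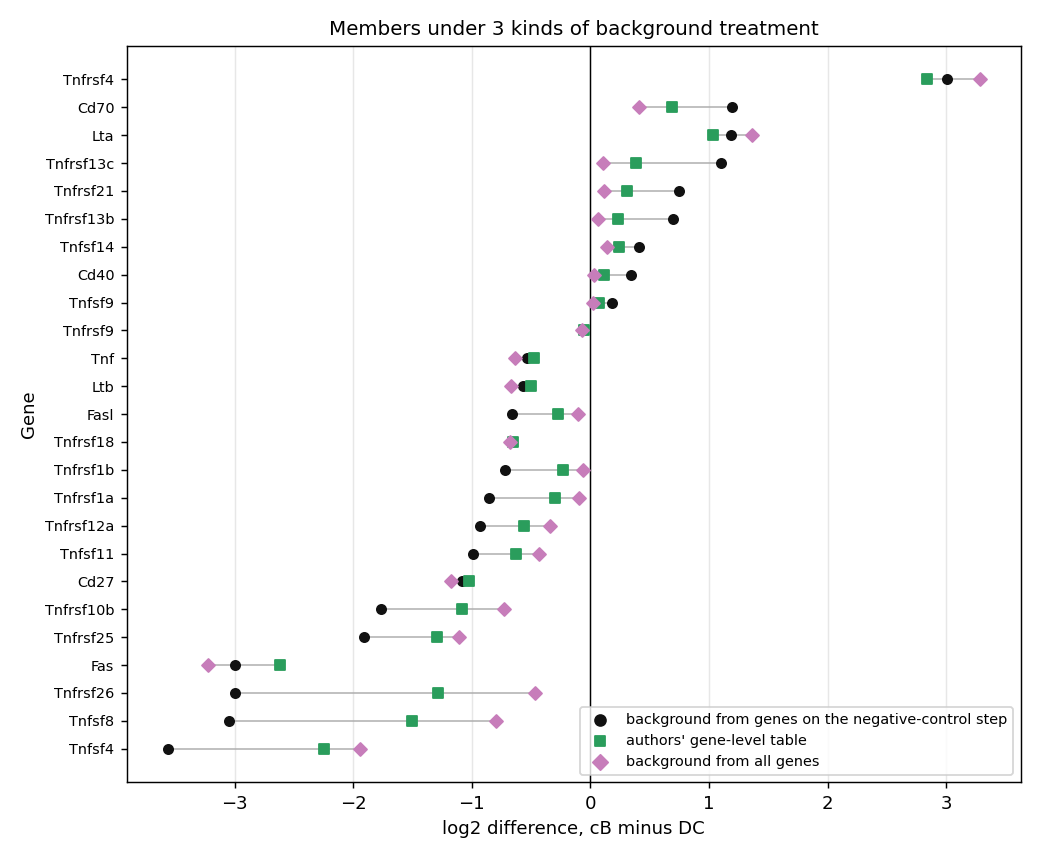
Log2 difference, cB minus DC (x axis), of the 25 tested members (y axis) with the background estimated from genes on the negative-control step (circles, the values reported), from the authors' values (squares) and with the background estimated from all genes (diamonds). Symbols of 1 gene lie on the same side of 0, and the spread is widest for Tnfrsf26 and Tnfsf8.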

How the data were processed

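Total RNA of sorted OT-1 cells was hybridised to 8 Illumina mouse-ref8-v2.0 arrays, 4 per group, assigned from the sample titles. Per the file headers, the unnormalized table holds mean bead intensity by gene name, and beside it a detection p-value for each array. A second deposited table has log2 values normalized by the authors, by a method that no source used here gives. For the 7258 genes shared, those values equalled the same intensities after log2 and quantile normalization with no background correction, within 5.0e-04.

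Background was estimated per array from detection p-values with limma 3.58.1 in R 4.3.3, on the 13929 genes whose p lay on steps of 1 in 798 on all arrays (tolerance 0.001 of a step). The other 4209 genes, 12 members among them, have detection p-values whose making is not stated. Normexp correction (offset 16), log2 and quantile normalization followed. Genes detected on at least 4 arrays were fitted with lmFit and eBayes, cB minus DC, with Benjamini-Hochberg adjustment over 7167 genes and a threshold of 0.05. Genes undetected on all arrays of a group have a bound there: "at least" compares with the lowest detected level, among genes on the step, of each array. The labels do not say whether replicates came from separate cultures or animals; p-values therefore measure only the spread among these arrays, possibly technical. The number of arrays limits the precision.

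The members and the gene lists were chosen with earlier results of these data known. Values on every array were given for members with an adjusted p below 0.05 and a log2 difference of at least 1, for Tnf, Fas, Fasl, Cd27, Cd40 and Cd40lg, and for some others chosen after their values were seen; up to 4 genes of each signalling list were named by lowest p, and further ones (Traf5, Ripk1, Fadd, Cflar, Tnfaip8) as examples chosen after their values were seen. Names and promoter windows came from RefSeq (GRCm38.p6), and figures were drawn with matplotlib 3.10.9. On simulated data 7675 genes passed the filter and 172 were called. Calls reached 38% of 50 genes given a log2 change of 0.5. They reached 88% for a change of 1, 98% for 2 and 100% for 4, and 5.81% of all its calls were false. On the arrays 4397 of 7167 genes were called. Whether these rates hold at that share of calls was not tested. Nor were they tested for members near background or with detection p-values off the steps. 1 marker gene is not reported here.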

Additional observations from a re-analysis of the deposited data

Results flagged for a closer look

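Of 50 groups of 4 arrays checked, the 25 tested members in cB and in DC, 1 had an array far from the rest, by Dixon's ratio of its gap to the group's range. This was Tnfsf8 on the DC arrays, where DC replicate 4 stood at 8.23 on the log2 scale while the other 3 all stood at 8.70, a ratio of 0.982. Chance gives such an array in about 1 of 20 groups. Tnfsf8 stayed past the threshold with any 1 array left out, with a log2 difference between -3.33 and -2.83.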

How the results depend on the processing

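Over all genes, 3775 to 4738 were called under the alternatives tried, beside 4397, and the tested members gave 3 to 7 calls toward cB and 13 to 16 toward DC. With any 1 array left out the counts were 3 to 6 and 14 to 15, the lowest without cB replicate 2, where 22 members were tested. Of 407 member values under 17 alternatives 388 kept direction and call; Tnfsf14, Fasl, Ltb and Tnfrsf21 lost the call in at least 1, and Cd40 and Tnfrsf13b gained it in at least 1. Members that were not called changed sign: Tnfrsf9 to 0.0096 with median scaling, and with 1 array left out Tnfrsf9 ranged from -0.164 to 0.014 and Tnfsf9 from -0.059 to 0.393. The median of the costimulatory receptors, -0.70 on 6 members, was -0.44 without background correction and -0.38 under the all-gene background. With an offset of 50 it was -0.55, and from the authors' values -0.44. With no detection filter it was -0.44 on 8 members, and with 1 array left out between -0.75 and -0.64. That of the death receptors, -1.31, was -0.69, -1.06, -0.69 and -0.41 without background correction, with an offset of 50, from the authors' values and under the all-gene background. It was -1.77 on 3 members when detection on all 4 arrays of a group was asked. With 1 array left out it was between -1.42 and -1.26 where all 4 members were tested. It was between -1.81 and -1.73 where Tnfrsf21 dropped out of the test, leaving 3 members. Same-numbered arrays of the 2 groups deviated together with correlations of 0.082 to 0.175, and every array correlated best with its own number; the names of same-numbered arrays are consecutive, but no label says what a number marks. With the replicate number as a block, 7 members passed toward cB and 15 toward DC, and 4431 genes were called; Cd40 (adjusted p = 0.022) and Tnfrsf13b (0.021) passed and Tnfsf14 (0.073) did not. Dim members near background have little signal to set a size from.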

Other observations

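The authors' gene-level log2 values equalled the unnormalized intensities after log2 and quantile normalization with no background correction, within 5.0e-04 for each value of the 7258 genes shared. The 2 alternatives therefore differ in the genes they hold, not in the values.

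With no detection filter, 16 of the 17 members outside the test had log2 differences between -0.25 and 0.18 and none passed (adjusted p at least 0.32 in that fit of limma). Tnfrsf22 was the other, at -2.35 ± 0.11 (adjusted p = 7.0e-08), with detection p-values of 0.055 to 0.297 on cB arrays and 0.012 to 0.122 on DC arrays although its DC intensities were 501 to 644. Tnfrsf1a, at 176 to 273, was detected on all 8 arrays. Neither gene has detection p-values on the steps of 1 in 798.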
